A study of Mus musculus with 6 samples.

Results

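Blood stem and progenitor cells find and hold their place in the bone marrow through a small set of surface receptors, and the transcripts of 10 of these were followed in mouse marrow cells with and without Asxl2. They were the chemokine receptor gene Cxcr4, the integrin subunit genes Itga4, Itga5, Itga6, Itgal, Itgb1 and Itgb2, the cell adhesion molecule gene Vcam1, the selectin ligand gene Selplg and the hyaluronan receptor gene Cd44. They were chosen by name, with earlier results of these data known, and made up 10 of the 24063 gene symbols measured. All 10 were detected in every library and all 10 entered the test. RNA was sequenced from LSK cells, the lineage-negative, c-Kit+ and Sca-1+ fraction of bone marrow that holds stem cells and multipotent progenitors. The groups were 3 Asxl2-/- libraries and 3 wild type libraries. Per the labels, mice of both groups were on the C57BL/6 strain, carried Mx1-cre and had been injected with pIpC. This synthetic double-stranded RNA raises interferon and so turns on the Mx1 promoter that drives Cre, which is active in liver and other tissues as well as in marrow. According to the study's methods, Cre removed an exon of Asxl2 (the exon before the last), cells were also gated as CD45.2+, and libraries were poly(A)-selected and unstranded. The labels give neither age, sex nor the time after injection.

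As background, stromal cells of the marrow release the chemokine Cxcl12, and its receptor Cxcr4 draws stem cells towards it and keeps them there. Integrins are pairs of an α and a β chain that grip matrix proteins and counter-receptors on neighbouring cells, and a cell needs both chains to place the receptor on its surface. Selplg is carried by leukocytes as PSGL-1, which rolls on selectins of the vessel wall, while Cd44 binds hyaluronan in the matrix and, when suitably glycosylated, selectins.

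Counts over all genes totalled 25528740 to 29136231 in 3 libraries (Asxl2-/- replicates 1 and 3 and wild type replicate 2), for which a count per transcript was deposited, and 53151198 to 55036924 in the other 3 (Asxl2-/- replicate 2 and wild type replicates 1 and 3), for which a count per exon was deposited. They are called gene-count and exon-count files here. A spliced read can be counted in each exon it touches, so totals and levels are not comparable between the 2 kinds, and the kind of file entered every test. Exon 11 of Asxl2 held 0.583% of the gene's exon counts in Asxl2-/- replicate 2, against 10.3% and 12% in wild type replicates 1 and 3, while for the summed Asxl2 count a difference was not detected (log2 fold change 0.11, adjusted p = 0.469 by edgeR, SE 0.0954). Xist had 49540 to 66689 counts in the Asxl2-/- libraries and 590 to 3194 in the wild type libraries, and Ddx3y, Eif2s3y, Kdm5d and Uty on the Y chromosome had at most 2 counts per Asxl2-/- library and 1026 to 4807 per wild type library. Genotype and sex therefore cannot be told apart in any comparison below. Of the sorting markers, Kit lay at 280 to 431 CPM (a gene's counts scaled to a common library size), and Ly6a, which encodes Sca-1, at 52.6, 69.1 and 57.6 CPM in Asxl2-/- replicates 1, 2 and 3 and at 40.5, 260 and 148 CPM in wild type replicates 1, 2 and 3.

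Summed over fixed marker lists, 12 LSK genes reached 1700 to 2180 CPM in the Asxl2-/- libraries and 1520 to 1730 in the wild type libraries. Markers of other lineages were present in all libraries, and no listed marker was at 0 in all 6. The B-lineage list lay at 194 to 199 CPM in Asxl2-/- and 45.0 to 68.0 in wild type libraries, with 8 of 10 genes raised. The megakaryocyte list lay at 363 to 889 and 184 to 392 CPM, with 5 of 10 tested genes raised, and the erythroid list at 428 to 619 and 899 to 1260 CPM, with 0 of 12 tested genes past the threshold by edgeR (5 at an unadjusted p under 0.05). Over all 6 libraries the summed levels of the remaining lists overlapped between the groups. The endothelial list lay at 122 to 179 CPM in Asxl2-/- against 68.7 to 164 in wild type libraries, and the stromal list at 161 to 391 against 53.6 to 240. The macrophage list lay at 31.3 to 67.1 against 37.7 to 110 CPM. The neutrophil list lay at 2190 to 5930 against 2270 to 7080 CPM and the T and NK list at 140 to 206 against 142 to 173. Within each kind of file the endothelial list was higher in Asxl2-/- libraries. It lay at 160 and 122 against 68.7 CPM in gene-count files and 179 against 164 and 120 CPM in exon-count files. The stromal list was higher in gene-count files only and the T and NK list in exon-count files only, while the macrophage and neutrophil lists turned over. The neutrophil sum was mostly that of Mpo, Elane and Prtn3, primary granule genes also used by myeloid progenitors (2140 to 5820 CPM in Asxl2-/- and 2260 to 7030 in wild type libraries). The other 8 neutrophil markers summed to 50.2 to 222 CPM in Asxl2-/- and 17.5 to 49.5 CPM in wild type libraries, and of the list's 11 genes 2 were raised, Ltf and Ngp (log2 fold changes 3.52 and 3.62, adjusted p = 0.0404 and 0.0444 by edgeR). Thy1 was raised among 10 tested T and NK genes (1.84, adjusted p = 0.0279 by edgeR). No gene of the endothelial, stromal or macrophage lists passed by edgeR, with 5 of 10, 0 of 11 and 1 of 10 tested genes at an unadjusted p under 0.05. Beside these counts, 2.04% of all genes tested were raised and 0.304% lowered at an adjusted p under 0.05 by edgeR. An unadjusted p under 0.05 was found for 27.7% of all genes. In bulk samples such as these, fewer cells of a type and less RNA per cell cannot be told apart.

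Of the receptors, 2 are spliced in ways that change the protein. For these the distinguishing letters are shown, since the exon-count files resolve them. Itga6 exists with 2 cytoplasmic tails. Form A includes exon 25 (mm10, chr2:71853534-71853663, + strand), whose coding bases end in a stop codon, and form B skips it and reads on into exon 26 (chr2:71855854-71858427). The coding bases of each tail follow, 5′ to 3′, with the stop codon in capitals.
Itga6 tail A: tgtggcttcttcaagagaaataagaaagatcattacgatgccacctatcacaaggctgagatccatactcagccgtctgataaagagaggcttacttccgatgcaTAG
Itga6 tail B: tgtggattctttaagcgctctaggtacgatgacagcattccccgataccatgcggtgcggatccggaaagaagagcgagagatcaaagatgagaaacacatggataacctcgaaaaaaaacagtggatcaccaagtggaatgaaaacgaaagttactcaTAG
Tail A has 108 coding bases and tail B has 162. The stop codon of tail A lies within the 130 bases of exon 25, so exon 26 is translated only when exon 25 is skipped.

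Cd44 can include up to 10 variable exons (exons 6 to 15 of the transcript used here, 1245 bases in all) between exons that every listed transcript holds. Its standard form joins exon 5 (chr2:102853015-102853236, − strand) to exon 16 (chr2:102828542-102828610), whereas forms with the last variable exon join exon 15 (chr2:102831330-102831536) to the same exon 16. Both junctions are given with 30 bases on each side, and the bases of exon 16 are in capitals.
Cd44 exon 5 to 16: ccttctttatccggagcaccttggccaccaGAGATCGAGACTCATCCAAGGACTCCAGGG
Cd44 exon 15 to 16: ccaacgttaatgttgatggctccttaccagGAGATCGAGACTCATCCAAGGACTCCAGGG
The right-hand sides are the same exon, and only the left-hand sides tell the forms apart.

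Itga6 was higher in Asxl2-/- LSK cells, and it was the only one of the 10 receptor genes past the threshold. The other 9 did not pass, and for 6 of them the sign of the difference depended on the kind of file. With edgeR's quasi-likelihood test on all 6 libraries, 1 of 10 receptors had an adjusted p under 0.05, beside 2.34% of the 14145 genes tested in either direction and 2.04% in the raised direction. At an unadjusted p under 0.05 there was also 1 of 10, beside 27.7% of all genes. The median log2 fold change of the 10 receptors was 0.03 and the median of its absolute value 0.17, beside 0.00 and 0.24 for all genes tested.

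**Figure D1:**
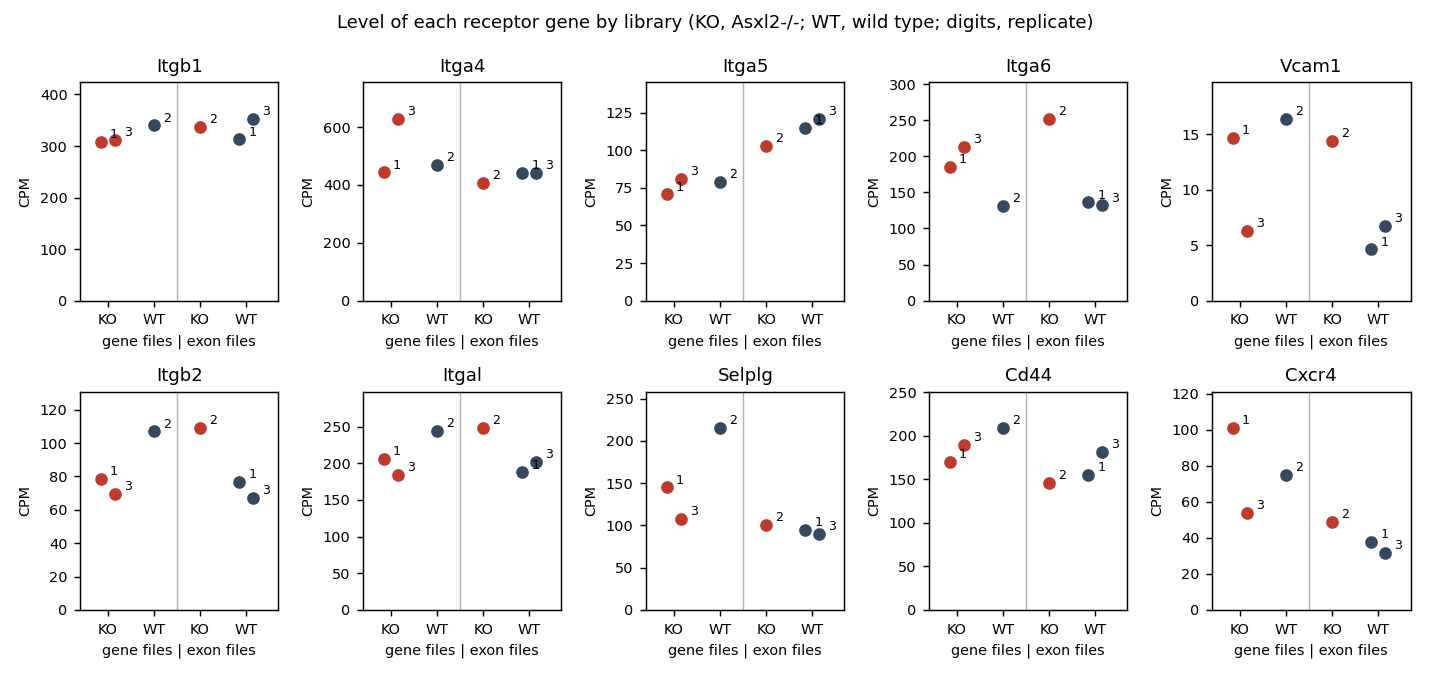
Level of each receptor gene in CPM (y axis, from 0) in each library, with gene-count files left of the grey line and exon-count files right of it. Red points are Asxl2-/- libraries (KO), dark points wild type libraries (WT), and digits are replicate numbers. For Itga6 the red points lie above the dark ones on both sides of the line. For Itgb2, Itgal, Vcam1 and Selplg the order of the groups turns over between the sides.

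The first family examined was the integrins that pair with Itgb1, which encodes the common β1 chain. Itgb1 (NM_010578, chr8:128685654-128733579 on mm10) had 308, 337 and 312 CPM in Asxl2-/- replicates 1, 2 and 3 and 313, 340 and 353 CPM in wild type replicates 1, 2 and 3. The groups overlapped, and the libraries were close together. Its level after removal of the file kind was 8.32 ± 0.04 log2 CPM (SD, n = 3) in Asxl2-/- and 8.38 ± 0.10 (SD, n = 3) in wild type cells, a log2 fold change of -0.06 (adjusted p = 0.715 by edgeR, SE 0.0919).

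Itga4 encodes α4, which with β1 forms VLA-4, the receptor for Vcam1 and fibronectin. The gene (NM_010576, chr2:79255426-79333114) had 444, 407 and 629 CPM in Asxl2-/- replicates 1, 2 and 3 and 442, 470 and 442 CPM in wild type replicates 1, 2 and 3. Asxl2-/- replicate 3 stood above the other 5 libraries, which lay close together. The log2 fold change of 0.04 (adjusted p = 0.907 by edgeR, SE 0.162) was smaller than the SD of 0.26 among the Asxl2-/- libraries (n = 3), and it was 0.19 in gene-count files and -0.12 in exon-count files.

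Itga5 encodes α5, which with β1 forms VLA-5, a fibronectin receptor. For this gene (NM_010577, chr15:103344286-103366748) gene-count files gave 70.8 and 80.9 CPM in Asxl2-/- replicates 1 and 3 and 79.2 CPM in wild type replicate 2, and the exon-count files gave 103 CPM in Asxl2-/- replicate 2 and 115 and 121 CPM in wild type replicates 1 and 3. The groups overlapped in the first kind and not in the second. The log2 fold change was -0.13 (adjusted p = 0.406 by edgeR, SE 0.0922).

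Itga6 encodes α6, which pairs with β1 or with the chain encoded by Itgb4 to bind laminins of basement membranes. The gene (NM_008397, chr2:71786939-71858427) had 185, 252 and 213 CPM in Asxl2-/- replicates 1, 2 and 3, from 5215, 13413 and 6036 counts. In wild type replicates 1, 2 and 3 it had 136, 131 and 132 CPM, from 7067, 3763 and 6278 counts. Every Asxl2-/- library was above every wild type library, and the wild type libraries were nearly level. After removal of the file kind the means were 7.78 ± 0.13 log2 CPM (SD, n = 3) and 7.02 ± 0.09 (SD, n = 3). The log2 fold change was 0.76 (SE 0.107), a 1.69-fold higher level in Asxl2-/- cells with an edgeR adjusted p of 0.0318, and the direction was the same in gene-count files (0.61) and in exon-count files (0.91). The call rested on all the libraries: it was lost when any 1 of them other than wild type replicate 1 was left out, with a log2 fold change between 0.61 and 0.91 in those fits, and it was also lost without the covariate for the file kind (0.70, adjusted p = 0.0511 by edgeR).

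Several values moved with Itga6. The B-lineage and megakaryocyte marker sums were also higher in Asxl2-/- libraries, the former in all 3, while the megakaryocyte sum of Asxl2-/- replicate 3 (363 CPM) lay below that of wild type replicate 1 (392 CPM). Within gene-count files the megakaryocyte sum was 428 and 363 CPM in Asxl2-/- replicates 1 and 3 and 184 CPM in wild type replicate 2, and within exon-count files it was 889 CPM in Asxl2-/- replicate 2 and 392 and 253 CPM in wild type replicates 1 and 3. Their part in the Itga6 difference was not tested.

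Because the 2 chains of an integrin must be made together, each α gene was set against its β partner within a library, as a log2 ratio of CPM per kilobase of transcript, which does not depend on library scaling. The Itga6 to Itgb1 ratio was -1.26, -0.94 and -1.07 for the Asxl2-/- libraries in order of replicate, against -1.73, -1.90 and -1.94 for the wild type libraries. All 3 Asxl2-/- libraries were above all 3 wild type libraries, by 0.74 within gene-count files and by 0.89 within exon-count files. This ratio holds the Itga6 counts already tested and is given as a description. The Itga4 to Itgb1 ratio (-0.96 to -0.21 in Asxl2-/-, -0.91 to -0.73 in wild type) differed by 0.30 in gene-count files and by -0.14 in exon-count files. For Itga5 to Itgb1 (-2.18 to -1.77 and -2.16 to -1.51) the corresponding differences were 0.07 and -0.21. The sign of both ratio differences changed with the kind of file.

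The exon-count files show where in the transcript the Itga6 reads lay. All 26 exons of Itga6 had a higher CPM in Asxl2-/- replicate 2 than in both wild type libraries of that kind, with log2 ratios to their mean from 0.69 to 1.18 and a median of 0.90. Exon 25, which encodes tail A, had 377 counts beside 407 in exon 24 (126 bases) in Asxl2-/- replicate 2, 174 beside 211 in wild type replicate 1 and 152 beside 177 in wild type replicate 3. Of the counts in exons 24 and 25 together, exon 25 thus held 48.1% (95% Wilson interval 44.6 to 51.6), 45.2% (40.3 to 50.2) and 46.2% (40.9 to 51.6). This is a share of counts in 2 exons and not the share of transcripts with tail A. Exon 25 has 130 bases, so the 2 exons would hold about equal counts if every transcript included it. The ratio of exon 25 to exon 24 counts was 0.926, 0.825 and 0.859 in the same libraries. On that reading most Itga6 transcripts included exon 25, though counts also vary between exons of 1 transcript. The intervals overlapped, so a difference between libraries in this share was not detectable at this depth. In gene-count files the transcript with exon 25 exceeded the one without it by 10 of 5215, 12 of 6036 and 2 of 3763 counts in Asxl2-/- replicates 1 and 3 and wild type replicate 2, too few to compare. Such intervals cover counting error only, and 1 Asxl2-/- library allows no test between genotypes.

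**Figure D2:**
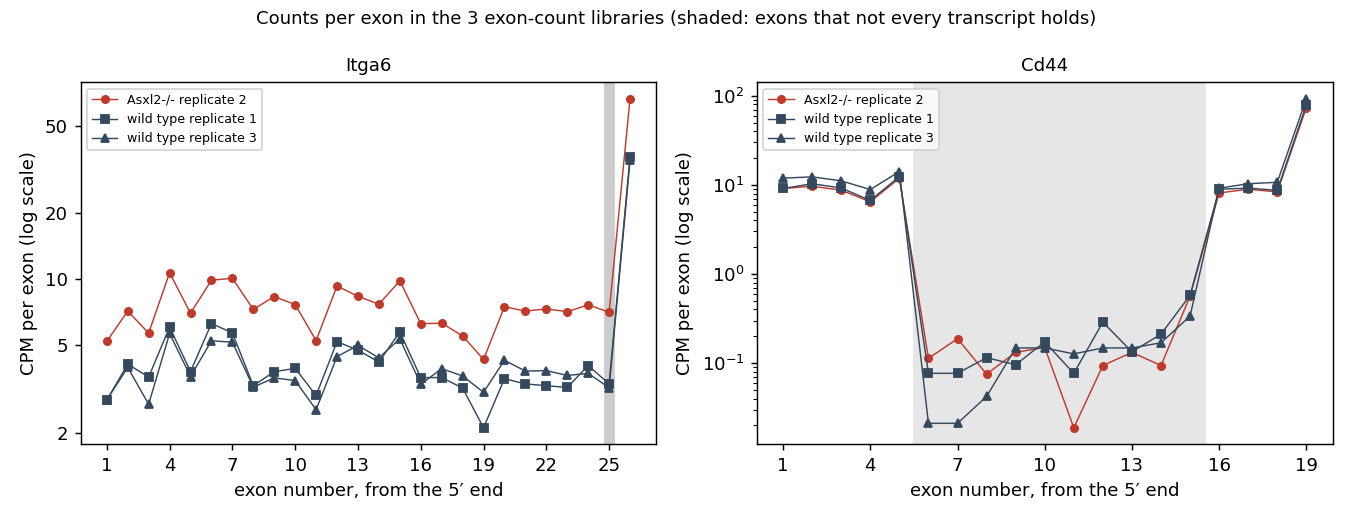
CPM per exon (y axis, log scale) along Itga6 and Cd44 (x axis, exon number from the 5′ end) in the 3 exon-count libraries. The shaded exons are absent from some listed transcripts. The red line of Asxl2-/- replicate 2 runs above both wild type lines at all 26 Itga6 exons, and the 10 shaded Cd44 exons lie far below the exons on either side in all 3 libraries.

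Vcam1 encodes the counter-receptor of VLA-4. It is best known from stromal and endothelial cells and macrophages of the marrow, and is also carried by blood stem cells. It was the least abundant of the receptors. The gene (NM_011693, chr3:116110020-116129688) had 14.7 and 6.31 CPM in Asxl2-/- replicates 1 and 3 and 16.4 CPM in wild type replicate 2, from 413, 179 and 472 counts. In exon-count files it had 14.4 CPM in Asxl2-/- replicate 2 and 4.64 and 6.73 CPM in wild type replicates 1 and 3, from 769, 242 and 319 counts. The groups turned over between the kinds of file, with log2 differences of -0.65 and 1.35, and within exon-count files all 8 of the 9 exons with at least 20 counts in every library were higher in the Asxl2-/- library, by 1.00 to 1.62. The fit over all libraries gave 0.36 (adjusted p = 0.681 by edgeR, SE 0.507), with SDs of 0.86 and 0.67 log2 CPM (n = 3 each), the widest spread of the 10 receptors.

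LFA-1, the leukocyte integrin that binds the Icam proteins, is made of the αL chain encoded by Itgal and the β2 chain encoded by Itgb2. Itgal (NM_001253872, chr7:127296260-127335137) had 206, 248 and 184 CPM in Asxl2-/- replicates 1, 2 and 3 and 188, 244 and 202 CPM in wild type replicates 1, 2 and 3. Itgb2 (NM_008404, chr10:77530348-77565674) had 78.7, 109 and 69.6 CPM in the former and 76.9, 107 and 67.3 CPM in the latter. Replicate 2 of each group was the highest library for both genes, and the groups overlapped. Log2 fold changes were 0.01 for Itgal (adjusted p = 0.965 by edgeR, SE 0.157) and 0.04 for Itgb2 (adjusted p = 0.939 by edgeR, SE 0.239).

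These near-zero values hid opposite differences in the 2 kinds of file. Itgal differed by -0.32 in gene-count files and 0.35 in exon-count files, and Itgb2 by -0.53 and 0.60. In exon-count files all 31 exons of Itgal (log2 ratio 0.19 to 0.47) and all 16 of Itgb2 (0.34 to 0.94) were higher in Asxl2-/- replicate 2 than in both wild type libraries. The Itgal to Itgb2 ratio lay between 0.32 and 0.53 in Asxl2-/- and between 0.32 and 0.72 in wild type libraries. It differed by 0.21 in gene-count files and by -0.25 in exon-count files, and the groups did not overlap within either kind.

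Selplg (NM_009151, chr5:113817798-113830501) had 145 and 108 CPM in Asxl2-/- replicates 1 and 3 and 215 CPM in wild type replicate 2. In exon-count files it had 101 CPM in Asxl2-/- replicate 2 and 95.1 and 90.4 CPM in wild type replicates 1 and 3. Wild type replicate 2 stood out as the highest library. The log2 fold change was -0.32 (adjusted p = 0.356 by edgeR, SE 0.213), with -0.77 in gene-count files and 0.12 in exon-count files.

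Some sums of myeloid markers moved with Vcam1, Itgal, Itgb2 and Selplg. The neutrophil list reached 7080 CPM in wild type replicate 2, 4050 in Asxl2-/- replicate 1 and 2190 in Asxl2-/- replicate 3, the order that all 4 genes followed in gene-count files. In exon-count files it reached 5930 CPM in Asxl2-/- replicate 2, 4480 in wild type replicate 3 and 2270 in wild type replicate 1. Vcam1 and Itgal had that same order, and Itgb2 and Selplg were likewise highest in Asxl2-/- replicate 2 but higher in wild type replicate 1 than in replicate 3. The macrophage list had the same order of libraries as the neutrophil list, with 110, 67.1 and 31.3 CPM in gene-count files and 49.0, 48.6 and 37.7 CPM in exon-count files. In the neutrophil sum this order was that of Mpo, Elane and Prtn3 (7030, 3820 and 2140 CPM, and 5820, 4450 and 2260 CPM). The other 8 neutrophil markers had another order in gene-count files, with 222 and 50.2 CPM in Asxl2-/- replicates 1 and 3 and 49.5 CPM in wild type replicate 2, and 112 CPM in Asxl2-/- replicate 2 beside 17.5 and 24 CPM in wild type replicates 1 and 3. The part of these markers in the receptor values was not tested.

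The sign of the fold change differed between the kinds of file for Itga4, Itgal, Itgb1, Itgb2, Vcam1 and Selplg, 6 of 10 receptors, beside 32.2% of all genes tested. Only Cxcr4, Itga5, Itga6 and Cd44 kept 1 direction.

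**Figure D3:**
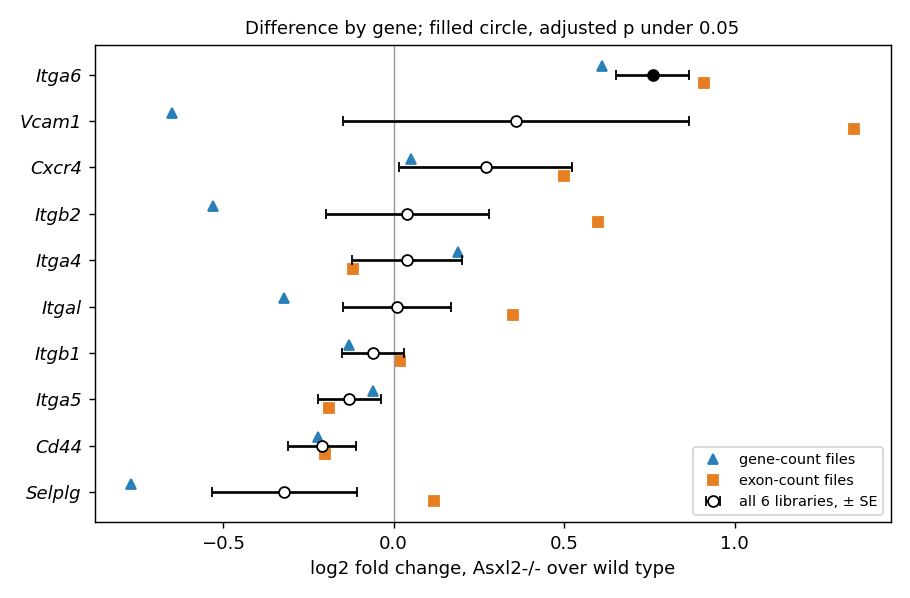
Log2 fold change of each receptor gene, Asxl2-/- over wild type (x axis). Circles are the fit over all 6 libraries with the standard error as bars, filled where the adjusted p was under 0.05, triangles the gene-count files alone and squares the exon-count files alone, both without a test. Only the circle of Itga6, at 0.76, is filled. The squares and triangles of Vcam1, Itgb2, Itgal, Selplg, Itga4 and Itgb1 lie on opposite sides of 0.

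Cd44 (NM_009851, chr2:102811142-102901665) had 170 and 190 CPM in Asxl2-/- replicates 1 and 3 and 209 CPM in wild type replicate 2. In exon-count files it had 146 CPM in Asxl2-/- replicate 2 and 155 and 182 CPM in wild type replicates 1 and 3. Within each kind of file the Asxl2-/- libraries were below the wild type libraries. The means were 7.34 ± 0.08 and 7.55 ± 0.11 log2 CPM (SD, n = 3 each), and the difference of -0.21 on the log2 scale (SE 0.100) did not pass the threshold (adjusted p = 0.228 by edgeR), with -0.22 and -0.20 in the 2 kinds of file. After removal of the file kind the groups of 2 receptors did not overlap, Itga6 with Asxl2-/- above and Cd44 with Asxl2-/- below, beside 44.4% of all genes tested with groups that did not overlap, 23.6% with Asxl2-/- above and 20.8% with Asxl2-/- below.

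The form of Cd44 was almost entirely the standard one in the 3 libraries that resolve exons. The 10 variable exons held 83 of 7796 counts in Asxl2-/- replicate 2, a share of 1.06% (95% Wilson interval 0.86 to 1.32). They held 95 of 8096, or 1.17% (0.961 to 1.43), in wild type replicate 1 and 62 of 8634, or 0.718% (0.561 to 0.919), in wild type replicate 3. The Asxl2-/- share lay between the wild type shares. In gene-count files, the count of the transcript with all variable exons exceeded that of the transcript with none by 47 of 4786 counts in Asxl2-/- replicate 1 (0.982%, 0.739 to 1.30) and 95 of 5388 in replicate 3 (1.76%, 1.44 to 2.15), against 31 of 6014 in wild type replicate 2 (0.515%, 0.363 to 0.731). Both Asxl2-/- libraries were above the wild type library there, so the order of the groups was not the same in the 2 kinds of file, and no test between genotypes was made. Each variable exon had 1 to 30 counts per library, whereas each inner exon common to all transcripts had 344 to 669. Exon 15, the left-hand side of the second junction above, had 30, 30 and 16 counts in Asxl2-/- replicate 2 and wild type replicates 1 and 3, and exon 5, of similar length (222 against 207 bases), had 632, 646 and 669.

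Cxcr4 (NM_009911, chr1:128588199-128592299) had 101 and 54.0 CPM in Asxl2-/- replicates 1 and 3 and 75.1 CPM in wild type replicate 2. In exon-count files it had 49.1 CPM in Asxl2-/- replicate 2 and 38.0 and 31.6 CPM in wild type replicates 1 and 3. The wild type library lay between the Asxl2-/- libraries in the first kind of file, and the Asxl2-/- library was the highest in the second. The means were 5.87 ± 0.48 and 5.63 ± 0.20 log2 CPM (SD, n = 3 each), and the log2 fold change of 0.27 (adjusted p = 0.514 by edgeR, SE 0.254) was within the spread of the Asxl2-/- libraries. It was 0.05 in gene-count files and 0.50 in exon-count files.

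Levels were compared between receptors as CPM per kilobase of transcript, within each kind of file, over libraries of both genotypes. Itgb1 was the highest by the mean in both kinds, at 73.4 to 81.0 CPM per kilobase in gene-count files and 74.6 to 84.2 in exon-count files. Of its α partners, Itga4 lay at 45.2 to 64.0 and 41.4 to 44.9, Itga6 at 21.7 to 35.4 and 22.0 to 41.9, and Itga5 at 16.2 to 18.5 and 23.6 to 27.6. The partner chains of LFA-1 lay between these, Itgal at 35.2 to 46.6 and 36.0 to 47.5 and Itgb2 at 24.3 to 37.4 and 23.5 to 38.1. Selplg ranged from 41.4 to 82.6 and from 34.7 to 38.6, Cd44 from 30 to 37.0 and from 25.9 to 32.2, and Cxcr4 from 29.8 to 55.8 and from 17.4 to 27.1. Vcam1 was lowest, at 1.86 to 4.82 and 1.37 to 4.25. Neighbours in this order mostly overlapped. The ranges were separate only between Itga6 and Itga5 and between Itga5 and Vcam1 in gene-count files, and between Itgb1 and Itga4 and between Cxcr4 and Vcam1 in exon-count files.

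**Figure D4:**
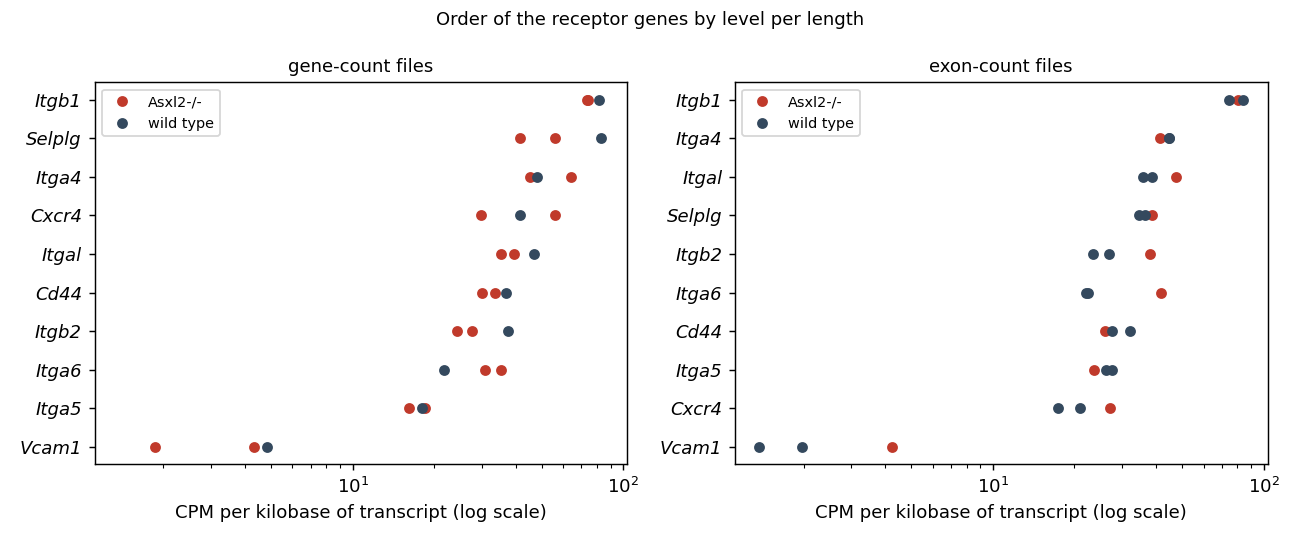
Level of each receptor gene per length, in CPM per kilobase of transcript (x axis, log scale), ordered by the mean within gene-count files (left) and the exon-count files (right). Each point is a library, red for Asxl2-/- and dark for wild type. Itgb1 is at the top and Vcam1 at the bottom of both panels, and most neighbours overlap.

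The comparison was then widened to 127 other genes of homing and adhesion in 7 lists by role, of which 115 passed the filter on low counts. Of these, 6 were raised in Asxl2-/- cells and 0 were lowered by edgeR, beside 2.04% of all genes raised and 0.304% lowered, and 41 of 115 had an unadjusted p under 0.05, beside 27.7% of all genes. Their median log2 fold change was 0.14, with 67 of 115 positive, beside 0.00 and 7082 of 14145 for all genes. The genes past the threshold were not gathered in 1 role but spread over 5 of the lists. Their number depended on single libraries, with 0, 15 and 2 genes past the threshold when Asxl2-/- replicate 1, 2 or 3 was left out and 17, 1 and 0 when wild type replicate 1, 2 or 3 was left out, and 32 with DESeq2.

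Among chemokine and egress receptors, 1 of 11 tested genes was raised (median log2 fold change -0.11). This was Cxcr2, the receptor through which chemokines call neutrophils, at 17.9, 10 and 14.3 CPM in Asxl2-/- replicates 1, 2 and 3 and 3.43, 4.58 and 4.51 CPM in wild type replicates 1, 2 and 3. All Asxl2-/- libraries were above all wild type libraries, as for 23.6% of all genes tested in the kind-adjusted levels. The log2 fold change was 1.57 (adjusted p = 0.0299 by edgeR, SE 0.214). Of the 11 neutrophil markers, Ltf and Ngp were also raised. Camp, S100a9 and Retnlg were at 3.04, 2.36 and 3.50 (adjusted p = 0.074, 0.0771 and 0.0829 by edgeR). S100a8, Lcn2 and Cebpe were at 1.49, 1.46 and 0.23 (adjusted p = 0.185, 0.158 and 0.837 by edgeR). Mpo, Elane and Prtn3 went the other way, at -0.21, -0.29 and -0.25 (adjusted p = 0.817, 0.787 and 0.78 by edgeR). The part of these markers in the Cxcr2 value was not tested. Among the signalling and desensitisation genes downstream of Cxcr4, 1 of 13 was raised (median 0.16), Rgs18, a regulator of G-protein signalling abundant in platelets and their precursors. Its level was 123 to 149 CPM in Asxl2-/- and 75 to 84.9 CPM in wild type libraries, a log2 fold change of 0.71 (adjusted p = 0.039 by edgeR, SE 0.110).

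Of the other integrin subunits, 0 of 17 passed by edgeR, although 8 had an unadjusted p under 0.05 and the median log2 fold change was 0.38. The gene with the smallest p-value was Itgam, the α chain of the myeloid integrin Mac-1, which shares the β2 chain with LFA-1. It had 43.8, 32.5 and 28.6 CPM in Asxl2-/- replicates 1, 2 and 3 and 14.1, 20 and 14.9 CPM in wild type replicates 1, 2 and 3, a log2 fold change of 1.01 (adjusted p = 0.0528 by edgeR, SE 0.187). The neutrophil markers given beside Cxcr2 moved the same way as Itgam except Mpo, Elane and Prtn3, and their part in its value was not tested either. The alternative partners of α6 and α4, picked after their values were seen, were also in this list: Itgb4 had a log2 fold change of 0.84 (adjusted p = 0.194 by edgeR) with at most 129 counts in a library, and Itgb7 of -0.82 (adjusted p = 0.115 by edgeR).

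Integrins must be switched on from inside the cell, and of the activators and adaptors 1 of 24 was raised (median 0.04). This was Ptk2, which encodes focal adhesion kinase. It had 13.8 and 15.7 CPM in Asxl2-/- replicates 1 and 3 and 6.25 CPM in wild type replicate 2, and 23.7 CPM in Asxl2-/- replicate 2 and 15.2 and 13.9 CPM in wild type replicates 1 and 3. The log2 fold change was 0.96 (adjusted p = 0.0495 by edgeR, SE 0.167).

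Among the ligands and counter-receptors 2 of 14 tested genes were raised, and the median log2 fold change was 0.58. Lama5, which encodes the laminin α5 chain and so a ligand of α6 integrins, had 29.6, 36.0 and 29.4 CPM in Asxl2-/- replicates 1, 2 and 3 and 4.78, 1.35 and 3.46 CPM in wild type replicates 1, 2 and 3. The log2 fold change was 3.68 (adjusted p = 0.0139 by edgeR, SE 0.322), the largest in any of the 7 lists. Selp, which encodes P-selectin, the partner of the Selplg product on platelets and endothelium, had 94.3 to 105 CPM in Asxl2-/- and 41.5 to 58.5 CPM in wild type libraries, a log2 fold change of 1.07 (adjusted p = 0.0308 by edgeR, SE 0.147). Both genes had all Asxl2-/- libraries above all wild type libraries, as had 23.6% of all genes tested in the kind-adjusted levels. The megakaryocyte genes Vwf and Pf4 of the marker list were among these (log2 fold changes 2.17 and 2.03, adjusted p = 0.019 and 0.0495 by edgeR). The part of megakaryocyte markers in the Lama5 and Selp values was not tested.

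Selectin ligands are made by glycosyltransferases that decorate Selplg and Cd44. Of these 0 of 11 passed by edgeR, with 2 at an unadjusted p under 0.05, and the smallest p-value belonged to St3gal6, a sialyltransferase, with 3.58 to 5.11 CPM in Asxl2-/- and 7.54 to 15.8 CPM in wild type libraries (log2 fold change -1.13, adjusted p = 0.115 by edgeR, SE 0.350). Of 25 other surface adhesion molecules 1 was raised (median 0.23). It was F11r, the junctional adhesion molecule JAM-A found on platelets, leukocytes and endothelium, at 15.3, 20.4 and 11.2 CPM in Asxl2-/- replicates 1, 2 and 3 and 8.92, 3.75 and 5.34 CPM in wild type replicates 1, 2 and 3 (log2 fold change 1.66, adjusted p = 0.0401 by edgeR, SE 0.262).

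**Figure D5:**
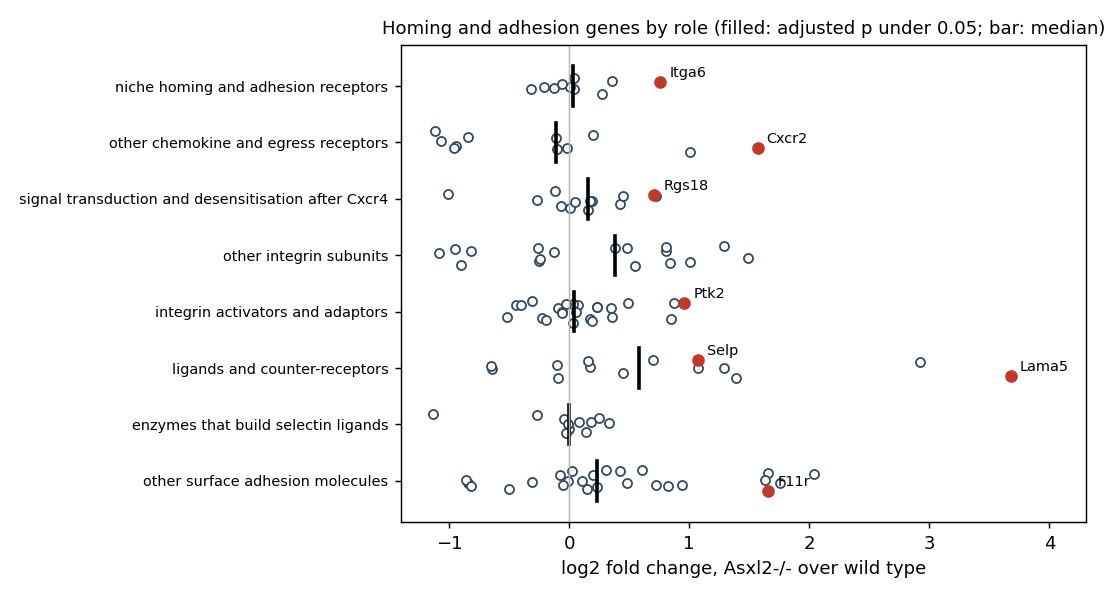
Log2 fold change, Asxl2-/- over wild type (x axis), of the tested genes in each list (rows). Each circle is a gene, filled and named where the adjusted p was under 0.05, and the black bar is the median of the list. Filled circles are Itga6 among the 10 receptors and 6 genes of the other lists, all to the right of 0, with Lama5 farthest at 3.68.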

How the data were processed

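RNA of sorted LSK cells was sequenced in 3 Asxl2-/- and 3 wild type libraries, and groups and replicate numbers were taken from the labels. The deposited values were raw read counts on mm10 with RefSeq transcripts. The authors gave 1 count per transcript in 3 libraries (33068 lines) and 1 count per exon in the other 3 (317548 lines). The submitters' processing notes name STAR, featureCounts and DESeq2, with no role or version, whereas the study's methods name Cuffdiff. Each symbol was represented by its transcript with the longest summed exons (4914 symbols had several), and exon counts were summed. Spliced reads can be counted repeatedly in these sums, which raises the counts of genes with many exons in exon-count files, so the file kind was treated as a technical batch. It was uneven over the groups.

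The main test was the two-sided quasi-likelihood test of edgeR 4.0.16 under R 4.3.3, fitted with glmQLFit on genes kept by filterByExpr and scaled by TMM. Group and file kind were the terms of the model, and 3 residual degrees of freedom remained. Benjamini-Hochberg adjustment covered all 14145 genes tested, and 0.05 was the threshold. Each SE was computed from its fold change and F value. CPM used normalised library sizes. Group means are log2 CPM (prior count 2) after removal of the fitted file kind, which makes their SDs somewhat small. Values within 1 kind of file carry no test. The study's methods call replicates biological, but the labels do not name separate mice, so p-values measure the spread between these samples. Reads were unstranded, so antisense transcripts cannot be separated. The scripts were tested on simulated data.

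The named genes were the 10 receptors, Asxl2, 5 sex-linked genes, Ly6a, Kit and, from each list, up to 3 genes past the threshold or otherwise the gene with the smallest p-value. The receptors and lists were chosen with earlier results of these data known, and 1 further list is not reported here. Sequences were read from GENCODE vM1 transcripts, whose inner exons matched those of the deposited files in order and length, and coordinates are those of the files. Alternatives were DESeq2 1.42.0, limma-voom (limma 3.58.1), other scalings and filters, no file kind, a replicate block, another transcript per symbol, length and GC trends, genes outside X and Y, gene-count or exon-count files alone and omission of 1 library at a time.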

Additional observations from a re-analysis of the deposited data

How the results depend on the processing

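Itga6 was higher in Asxl2-/- cells under all 21 alternatives, by 0.61 to 0.91 on the log2 scale, and past the threshold in 12 of the 19 that carry a test (adjusted p 5.93e-11 to 0.144). It missed it without the file kind (0.70, adjusted p = 0.0511), under the replicate block alone (0.69, adjusted p = 0.126) and in 5 of 6 fits that left out a library (0.61 to 0.91, adjusted p = 0.0576 to 0.144), passing only without wild type replicate 1. Cxcr4, Itga5 and Cd44 kept their direction in all 21, with 0.05 to 0.50, -0.21 to -0.06 and -0.27 to -0.16 when a library was left out. The gene-count files alone gave 0.61 for Itga6, -0.32 for Itgal, -0.53 for Itgb2, -0.65 for Vcam1 and -0.77 for Selplg, and the exon-count files alone 0.91 for Itga6, 0.35 for Itgal, 0.60 for Itgb2, 1.35 for Vcam1, 0.12 for Selplg, -0.12 for Itga4 and 0.02 for Itgb1. Signs of receptors near 0 also turned with median-ratio scaling or DESeq2 (Itga4 -0.01, Itgal -0.03, Itgb2 -0.01), with library size only (Itgb1 0.04), settings that moved the median of all genes by -0.048, -0.047 and 0.098, which is about the size of these turns, with the length trend removed (Itga4 -0.13, Itgal -0.08) and with the GC trend removed (Itga4 -0.03, an alternative chosen after seeing the data). Leaving out 1 library at a time gave -0.13 to 0.19 for Itga4, -0.32 to 0.35 for Itgal, -0.13 to 0.02 for Itgb1, -0.53 to 0.60 for Itgb2, -0.65 to 1.35 for Vcam1 and -0.77 to 0.12 for Selplg. Apart from the scalings, the cause was not tested. The number of receptors past the threshold, 1, became 0 without the file kind and under the block alone, and 0 or 1 when a library was left out. All 331 genes past the threshold became 161 with library size only, 2303 with DESeq2 and 9 to 1312 when a library was left out (16, 659 and 96 without Asxl2-/- replicates 1, 2 and 3, and 1312, 124 and 9 without wild type replicates 1, 2 and 3). The 6 other homing and adhesion genes became 3, 32 and 0 to 17 under these settings. Choosing the transcript with the largest mean count returned the transcript already used for every receptor. That alternative therefore could not move their levels or partner ratios beyond scaling, and it does not test the choice of transcript for them.

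When a replicate block joined the file kind in the model, 5189 of 14145 genes passed, 61 homing and adhesion genes among them, and 2 receptors, Itga6 and Selplg (-0.33, adjusted p = 0.00341). Deviations of same-numbered libraries from their group means correlated at 0.294, -0.00785 and -0.00285. Each such pair joins a gene-count and an exon-count file, so the effect of the kind enters these correlations. After removal of the file kind they were 0.635, 1 and 0.388. The value of 1 follows from the construction, as replicate 2 is the lone library of its group in its kind of file. These values cannot decide whether same-numbered libraries are pairs. The labels give a number only, and the libraries are not treated as pairs. The fit leaves 1 residual degree of freedom.

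With 3 residual degrees of freedom the precision is limited by the number of libraries and their spread more than by counts. Dropping a library that is alone in its kind leaves the group effect to the other kind. Only 3 libraries, 1 of them Asxl2-/-, resolve exons.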
